A study of Sus scrofa with 4 samples.

Results

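The genes of the motile cilium and of its axoneme, the microtubule core that beats, were followed in pig (Sus scrofa) ovaries taken in diestrus. Members were the rows of the deposited expression table whose symbol starts with CFAP, DNAH, DNAI, DNAAF, RSPH or TEKT, together with 11 named ciliary genes, of which SPAG17 and PIFO matched no row by symbol. The rule found 74 of the 22309 rows, with 72 distinct symbols; CFAP57 had 3 rows, and 6 rows were genes assembled from the reads. The rule reads symbols and no measured value. Of the members with a cellular component term in the table, 36 of 45 (80%) carried one that names a cilium, an axoneme, a flagellum, a dynein or a microtubule, against 4.84% of the other annotated rows.

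Messenger RNA was sequenced from 2 ovaries labelled leptin overexpression and 2 ovaries labelled WT, all in diestrus. Leptin is the fat-cell hormone that signals energy stores. The leptin overexpression sows were F2 animals, found by screening, of a line that goes back to 1 transgenic pig (C013): its male clones sired the F1 with a Duroc/Landrace/Yorkshire sow, and the F1 was crossed again. The promoter of the transgene, the ages and the origin of the WT sows were not given in the sources used here. The labels do not say that the 2 ovaries of a group came from separate sows, and p-values here rest on the spread between libraries, which may be technical.

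A motile cilium is built on a ring of outer doublet microtubules, in most cases around a central pair. Rows of outer and inner dynein arms walk along the neighbouring doublet, radial spokes and nexin links turn that sliding into a beat, and the dyneins are assembled in the cytoplasm before they enter the cilium. In the female tract such cilia stand in tufts on the multiciliated cells of the oviduct, where they move the egg, and the transcription factor FOXJ1 drives their genes. Most other cells carry a single primary cilium, which lacks dynein arms and a central pair.

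Total expected counts were 16493113 to 16797511 per library. LEP counts were 55 and 124 in leptin overexpression and 0 and 3 in WT, as labelled. LEP itself did not pass an adjusted p of 0.05 in the main comparison below (edgeR adjusted p = 0.198). Libraries did not pair up by group: over 13937 genes, which are not independent replicates, Pearson's r was 0.945 between the leptin overexpression libraries, 0.928 between the WT libraries and 0.958 between leptin overexpression replicate 1 and WT replicate 2. Leptin overexpression replicate 2 and WT replicate 1 correlated least, at 0.875, and leptin overexpression replicate 2 was at 0.906 with WT replicate 2. For WT replicate 1 the factor of the trimmed mean of M values scaling (TMM) was 1.34, against 0.809 to 0.998 in the other libraries. Levels below are counts scaled to library size with that factor (CPM) unless FPKM is named. For members, most fitted fold changes, ratios and limits that WT replicate 1 moves by much are given without it too.

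The genes of the motile cilium were mainly seen in WT replicate 1, at a much lower level in WT replicate 2, and most were near 0 in both leptin overexpression libraries. The median member was at 0.392 and 0.598 CPM in leptin overexpression replicates 1 and 2, and at 8.21 and 1.52 CPM in WT replicates 1 and 2. No count was found for 23 and 13 of the 74 rows in leptin overexpression, and for 2 and 4 in WT. Over all members the summed level was 224 and 280 CPM in leptin overexpression, against 821 and 297 CPM in WT. CFAP298-TCP10L, TPPP3, CFAP20 and CFAP36 held most of the sum in the leptin overexpression libraries. In bulk tissue, fewer ciliated cells and less ciliary RNA per cell cannot be told apart.

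**Figure D1:**
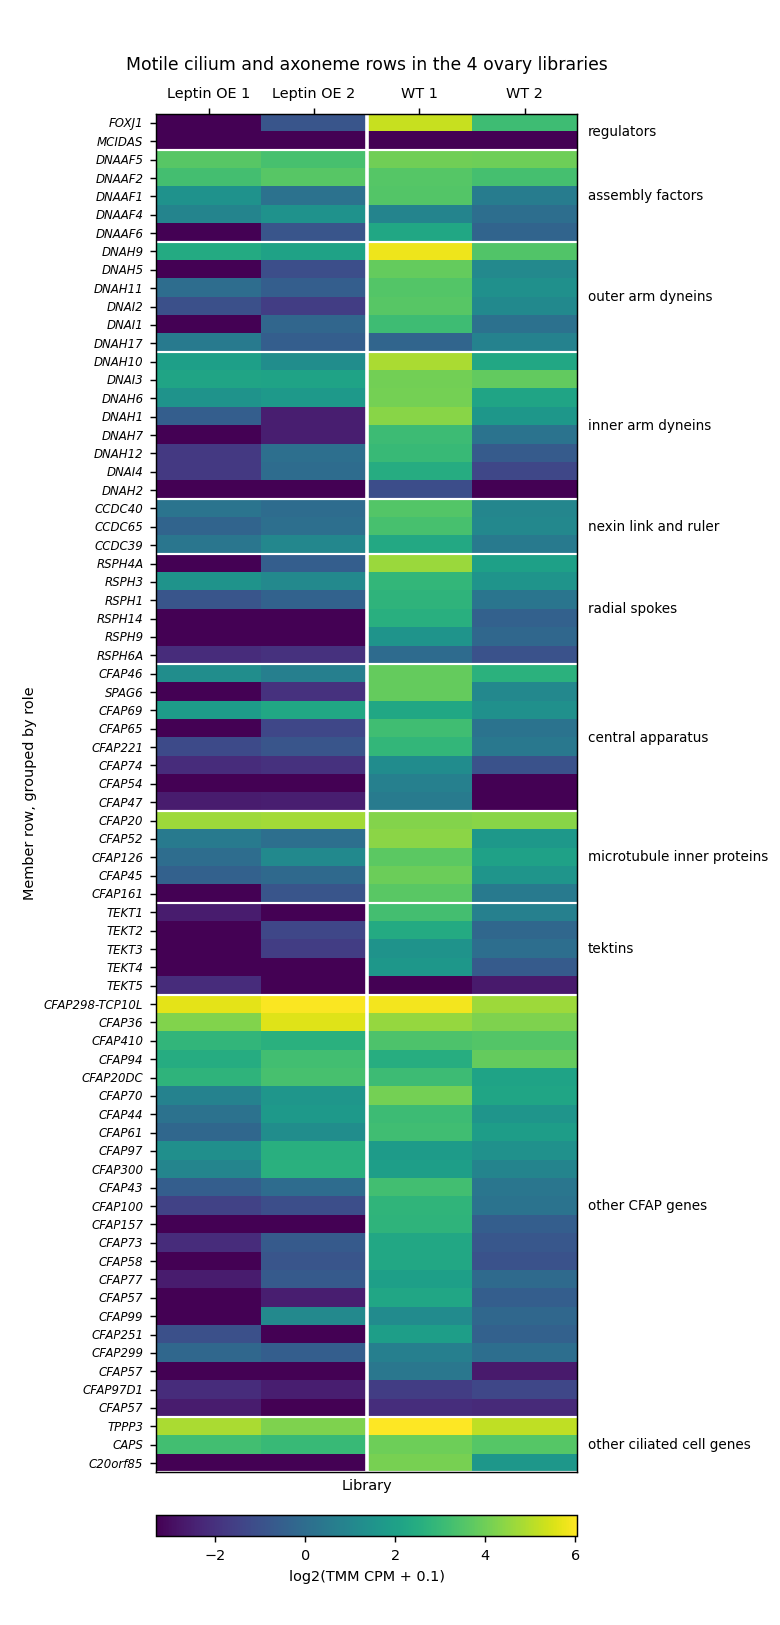
Level of each of the 74 member rows (down the page, grouped by role) in the 2 leptin overexpression and the 2 WT libraries (across), coloured by log2(TMM CPM + 0.1), so that the darkest colour is 0 counts. WT replicate 1 is the brightest column for most rows, while CFAP20, CFAP36, CFAP298-TCP10L, DNAAF2 and DNAAF5 keep a similar colour in all 4 libraries.

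No member passed the threshold. With edgeR's quasi-likelihood test, an adjusted p under 0.05 over all 13937 tested genes was reached by 0 of the 59 tested members, and 0.0% of all tested genes were called lower and 0.0287% higher. The smallest adjusted p of a member was 0.198. At an unadjusted p under 0.05, 37 of the 59 tested members (62.7%) were lower in leptin overexpression and 0 were higher, against a background of 5.32% of tested genes lower and 4.04% higher. Of the 73 members with a count in any library, 50 (68.5%) had both leptin overexpression libraries below both WT libraries, against 22.4% of all rows with a count; CFAP20 was the 1 member with both above, against 18.9%.

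The median fitted log2 fold change, leptin overexpression over WT, was -2.73 over the 59 tested members and -0.012 over all tested genes. Setting the members at 0 counts in leptin overexpression to 3 counts over the group left the median at -2.73, but could not have moved it. The tested ones, C20orf85, RSPH14 and RSPH9, stayed below the median, at -6.74, -5.14 and -4.21. Values below 0 were fitted for 50 tested members, beside 50.7% of all tested genes, and above 0 for 9. The filter on low counts kept 27 of the tested members through the WT libraries, with at most 1 leptin overexpression library at the filter level. In 22 of these neither leptin overexpression library reached it, so that the groups had to differ before scaling. The medians and counts over tested members are therefore descriptions only. The other 15 rows were too low to be tested.

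The tools disagreed on calls. DESeq2 called 17 members lower and 0 higher, against 1.47% of its 13937 genes lower and 0.718% higher, and limma-trend on log2(FPKM + 1) called 25 lower, against 2.68%. Among these, 14 members were called by both. Without a filter on low counts edgeR called 14 lower, against 0.939% of 17884 rows, 3 of them rows that the filter removes. The 9 members called in all 3 of these fits were C20orf85, CFAP45, CFAP46, CFAP52, DNAI2, RSPH14, RSPH9, SPAG6 and TEKT1. Limma-voom called 0 members lower, against 0.0% of genes, and edgeR with upper-quartile factors called 0, against 0.0287%.

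**Figure D2:**
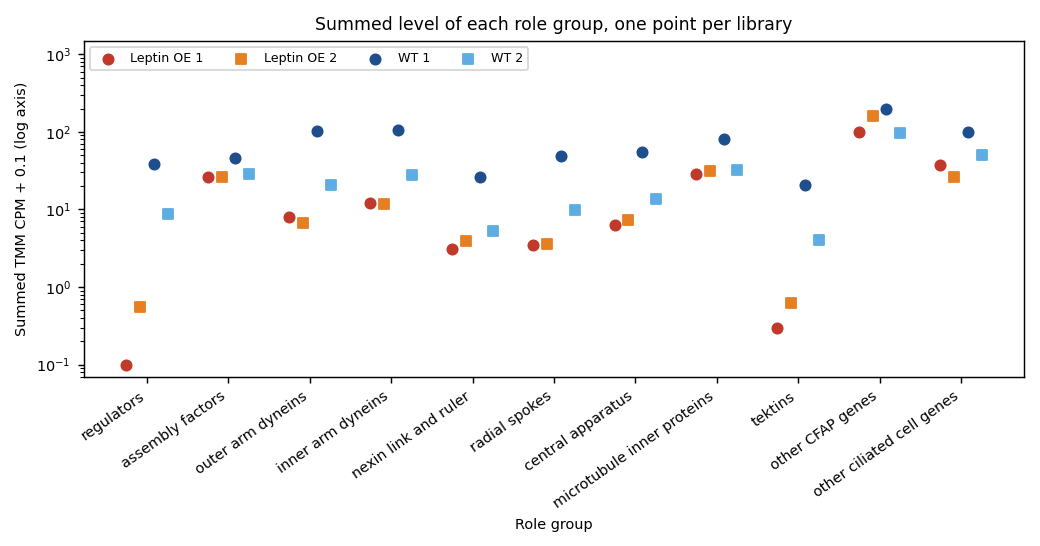
Summed TMM CPM + 0.1 on a log axis for each of the 11 role groups, 1 point per library. WT replicate 1 is the highest point of every group. The leptin overexpression points lie below both WT points in every group except the other CFAP genes. In the assembly factors and microtubule inner proteins they lie only a little below WT replicate 2.

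The regulators stand at the head of the program. FOXJ1 (ENSSSCG00000017187), the forkhead factor that switches on motile cilium genes, had 0 and 6 counts in leptin overexpression and 841 and 145 counts in WT, or 0 and 0.448 CPM against 38.2 and 8.65 CPM. Its groups did not overlap, and the pooled ratio of leptin overexpression over WT was 0.00823 (95% counting interval 0.00301 to 0.0180; such intervals cover counting error only). The log2 fold change was -6.73 (SE 1.25, edgeR adjusted p = 0.218). FOXJ1 was not called by DESeq2 (adjusted p = 0.0714), edgeR without a filter (0.193) or limma-voom (0.532), while limma-trend called it (4.26e-09). Against WT replicate 2 alone the ratio was 0.0242 (0.00872 to 0.0539). MCIDAS, the coactivator that starts multiciliated cell formation, had 0 counts in all 4 libraries, which allows up to 0.136 to 0.224 CPM per library.

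Assembly factors fold and join dynein arms in the cytoplasm, and the 5 members among them were mixed. DNAAF2 and DNAAF5, both preassembly factors, were at 9.47 and 12.2 CPM against 11.9 and 9.67 CPM and at 12.1 and 10.01 CPM against 15.9 and 15.6 CPM, leptin overexpression against WT. DNAAF4 was at 1.76 and 2.61 CPM in leptin overexpression and 1.77 and 0.955 CPM in WT. Their groups overlapped except in DNAAF5. DNAAF1, a leucine-rich repeat factor, was at 2.61 and 1.05 CPM in leptin overexpression and at 11.5 and 1.43 CPM in WT, so that WT replicate 2 lay between the leptin overexpression libraries. DNAAF6 was at 0 and 0.448 CPM in leptin overexpression and at 4.67 and 0.716 CPM in WT, without overlap. The median log2 fold change of the 5 was -0.51. Assembly factors outside the rule had log2 fold changes below 0, of unlike size. ZMYND10 and LRRC6 were at -4.10 and -3.73, and DNAAF8 and DNAAF3 at -1.85 and -0.68, all with leptin overexpression below WT. SPAG1, which overlapped, was at -0.050. Of these 5 none passed edgeR's threshold. Their fold changes without WT replicate 1 are not given. DNAAF8 was at 0.718 and 0.896 CPM in leptin overexpression and at 4.58 and 1.25 CPM in WT, its excess lying mainly in WT replicate 1.

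Outer arm dyneins supply most of the force of the beat. DNAH9, an outer arm heavy chain, had the highest mean CPM of the outer arm genes, with 5.16 and 4.11 CPM in leptin overexpression and 56.5 and 11.2 CPM in WT (log2 fold change -2.87, SE 0.74, edgeR adjusted p = 0.274); leaving out WT replicate 1 gave -1.29. DNAH5, its partner heavy chain, was at 0 and 0.374 CPM in leptin overexpression and 14.0 and 2.03 CPM in WT. DNAH11, the heavy chain of the proximal part of the cilium, was at 0.914 and 0.598 CPM in leptin overexpression and 11.4 and 2.51 CPM in WT. All 3 heavy chains had both leptin overexpression libraries below both WT libraries, and the median log2 fold change of the 6 outer arm genes was -3.45, or -1.61 without WT replicate 1. The intermediate chains, which anchor the arm, were alike: DNAI2 was at 0.392 and 0.224 CPM in leptin overexpression and 12.2 and 2.09 CPM in WT (edgeR adjusted p = 0.222), and DNAI1 was at 0 and 0.747 CPM in leptin overexpression and 8.67 and 1.01 CPM in WT. DNAH17, an outer arm heavy chain known from sperm, was at 1.37 and 0.598 CPM in leptin overexpression and 0.726 and 1.67 CPM in WT, with overlap and no excess in WT replicate 1.

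Inner arm dyneins shape the waveform, and all 7 tested rows had log2 fold changes below 0, from -6.82 to -1.82. Without WT replicate 1, 5 of the 7 were below 0, DNAH12 was at 0.074 and DNAI4 at 0.81, and the median was -0.64, against -2.44 with it. DNAH10 was at 3.85 and 2.32 CPM in leptin overexpression and 28.8 and 4.77 CPM in WT (edgeR adjusted p = 0.422). DNAH6 was at 2.74 and 3.21 CPM in leptin overexpression and 16.7 and 4.30 CPM in WT, and DNAH1 was at 0.588 and 0.0747 CPM in leptin overexpression and 20.5 and 3.04 CPM in WT. These 3 heavy chains did not overlap between the groups, although the gap between DNAH6 in WT replicate 2 and in leptin overexpression was small. DNAH7 had 0 and 1 counts in leptin overexpression and 188 and 18 counts in WT, a pooled ratio of 0.00656 (95% counting interval 1.65e-04 to 0.0370), or 0.0324 (7.78e-04 to 0.205) against WT replicate 2 alone. DNAH12 and DNAI4 overlapped, with WT replicate 2 below leptin overexpression replicate 2.

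DNAI3, an inner arm intermediate chain, had replicates that lay close together in both groups. It averaged 4.28 ± 0.135 CPM in leptin overexpression and 15.1 ± 1.94 CPM in WT (SD, n = 2 each). Its log2 fold change was -1.82 (SE 0.45, edgeR adjusted p = 0.249), with -1.70 when WT replicate 1 was left out and -1.98 when WT replicate 2 was. DESeq2 called it lower (adjusted p = 0.0325).

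The nexin links and the ruler that spaces the spokes and arms were represented by 3 genes. CCDC40, of the ruler, was at 1.11 and 0.896 CPM in leptin overexpression and 11.5 and 1.85 CPM in WT, and CCDC65, of the nexin link complex, was at 0.718 and 0.971 CPM in leptin overexpression and 9.89 and 1.97 CPM in WT. CCDC39, which forms the ruler with CCDC40, was at 1.18 and 1.94 CPM in leptin overexpression and 4.95 and 1.31 CPM in WT. The ruler partners thus differed in order: CCDC40 did not overlap, while CCDC39 in WT replicate 2 lay between the leptin overexpression libraries. Log2 fold changes were -2.73, -2.81 and -1.01 (edgeR adjusted p = 0.390, 0.366 and 0.686) for CCDC40, CCDC65 and CCDC39, and -0.89, -1.24 and 0.22 without WT replicate 1.

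Radial spokes carry signals from the central pair to the dyneins. RSPH4A, a spoke head protein, was at 0 and 0.598 CPM in leptin overexpression and 24.5 and 3.94 CPM in WT. RSPH1, also of the head, was at 0.457 and 0.672 CPM in leptin overexpression and 6.76 and 1.13 CPM in WT. RSPH9 and RSPH14 had no count in leptin overexpression. RSPH9 had 62 and 13 counts in WT, and RSPH14 had 132 and 11. With leptin overexpression set at a limit of 3 counts over the group, they were 18.5-fold and 35.3-fold lower. Against WT replicate 2 alone these values were 7.42-fold for RSPH9 and 6.28-fold for RSPH14. They leave out the counting error of WT. Upper 95% counting limits of the pooled ratio were 0.0681 for RSPH9 and 0.0353 for RSPH14. Against WT replicate 2 alone they were 0.192 and 0.233. RSPH3, a spoke protein with A-kinase anchoring, was at 2.742 and 2.02 CPM in leptin overexpression and 7.30 and 2.745 CPM in WT, nearly equal in WT replicate 2 and leptin overexpression replicate 1. All 6 spoke rows had leptin overexpression below WT; the median log2 fold change of the 5 tested was -5.60, and -4.21 with the rows at 0 counts set to that limit; without WT replicate 1 the fitted median was -3.76.

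The central apparatus sets the plane of the beat. SPAG6, an armadillo-repeat protein of the central pair, had 0 and 2 counts in leptin overexpression and 313 and 33 counts in WT, a pooled ratio of 0.00781 (95% counting interval 9.42e-04 to 0.0284), or 0.0354 (0.00411 to 0.138) against WT replicate 2 alone. CFAP46 was at 2.29 and 1.57 CPM in leptin overexpression and 14.1 and 6.15 CPM in WT, the highest of these genes in WT replicate 2 (log2 fold change -2.39, SE 0.62, edgeR adjusted p = 0.266); leaving out WT replicate 1 gave -1.68. CFAP69 was at 3.39 and 4.63 CPM in leptin overexpression and 4.67 and 2.51 CPM in WT, with overlap. Of the other members, CFAP221 and CFAP65 were lower in both leptin overexpression libraries than in both WT libraries, and CFAP47 and CFAP54 were seen almost only in WT replicate 1, with 31 and 35 counts there and 0 in WT replicate 2.

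Microtubule inner proteins line the inside of the doublets, and tektins are the filaments that run along them. CFAP52 was at 1.31 and 0.971 CPM in leptin overexpression and 21.1 and 3.10 CPM in WT, and CFAP45 was at 0.653 and 0.822 CPM in leptin overexpression and 15.4 and 2.86 CPM in WT (edgeR adjusted p = 0.279 and 0.241). CFAP126, a doublet protein that also places basal bodies in the mouse, was at 0.914 and 2.09 CPM in leptin overexpression and 12.7 and 4.06 CPM in WT. None of these 3 overlapped between the groups; without WT replicate 1 their log2 fold changes were -1.45 for CFAP52, -1.97 for CFAP45 and -1.46 for CFAP126. CFAP20, a doublet seam protein present in primary cilia too, averaged 26.0 ± 0.649 CPM in leptin overexpression and 20.2 ± 0.677 CPM in WT (SD, n = 2 each; log2 fold change 0.37, edgeR adjusted p = 0.738).

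Among tektins, TEKT1 had 1 and 0 counts in leptin overexpression and 209 and 27 counts in WT, a pooled ratio of 0.00573 (95% counting interval 1.44e-04 to 0.0322), or 0.0216 (5.28e-04 to 0.131) against WT replicate 2 alone. TEKT2 was at 0 and 0.299 CPM in leptin overexpression and 5.17 and 0.776 CPM in WT, and TEKT3 was at 0 and 0.224 CPM in leptin overexpression and 2.72 and 0.955 CPM in WT. TEKT4, too low to be tested, had 0 counts in leptin overexpression and 67 and 9 counts in WT. With leptin overexpression set at 3 counts over the group it was 18.7-fold lower, or 5.14-fold against WT replicate 2 alone. Upper 95% counting limits of its ratio to WT were 0.0672 and, against WT replicate 2 alone, 0.296. These 4 tektins did not overlap between the groups. TEKT5, known from sperm, had 2 and 0 counts in leptin overexpression and 0 and 1 counts in WT.

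The other CFAP rows were mixed. Of 23 rows, 16 were tested, 11 of them with log2 fold changes below 0 and 5 above, and 13 rows had leptin overexpression below WT. Levels in leptin overexpression near or above those of WT were found for CFAP36, a protein of the primary cilium too, at 19.1 and 48.2 CPM against 23.8 and 18.5 CPM in WT. CFAP298-TCP10L, a row named for 2 neighbouring genes whose reads cannot be separated here, was at 50.5 and 63.1 CPM in leptin overexpression and 59.1 and 25.4 CPM in WT. CFAP410, a basal body protein also of the primary cilium, was at 7.12 and 6.13 CPM in leptin overexpression and 10.7 and 11.4 CPM in WT, without overlap and without an excess in WT replicate 1. In contrast CFAP157 had 0 counts in leptin overexpression and 148 and 10 counts in WT, at least 39.0-fold lower in leptin overexpression, or at least 5.71-fold against WT replicate 2 alone. CFAP43, CFAP61, CFAP70, CFAP77, CFAP100 and CFAP251 also did not overlap, with log2 fold changes of -3.63 to -2.02, or -1.76 to -0.71 without WT replicate 1.

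Among the remaining ciliated cell genes, C20orf85 (ENSSSCG00000007510), a gene expressed in ciliated epithelia of unclear function, had 0 counts in both leptin overexpression libraries and 381 and 51 counts in WT. With leptin overexpression set at 3 counts over the group it was 107-fold lower, or 29.1-fold against WT replicate 2 alone. Upper 95% counting limits of its ratio to WT were 0.0116 and, against WT replicate 2 alone, 0.0438. It had the smallest adjusted p of the members (edgeR, 0.198, and DESeq2, 5.35e-06). TPPP3, a tubulin polymerisation protein, was at 28.6 and 18.7 CPM in leptin overexpression and 66.0 and 35.2 CPM in WT, and CAPS, a calcium-binding protein, was at 9.21 and 7.77 CPM in leptin overexpression and 15.7 and 11.9 CPM in WT. Neither overlapped, but their leptin overexpression levels were far from 0.

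Per transcript length, in FPKM as deposited and before TMM scaling, ciliary genes spanned a wide range. In WT replicate 1 the highest members after CFAP298-TCP10L were CFAP126 at 30.1 FPKM, C20orf85 at 29.4 FPKM, TPPP3 at 22.8 FPKM and FOXJ1 at 22.4 FPKM. In the leptin overexpression libraries CFAP126 was at 1.49 and 2.99 FPKM, C20orf85 was listed at 0 in both, TPPP3 was at 6.85 and 3.91 FPKM, and FOXJ1 was listed at 0 and at 0.16 FPKM. The long dynein heavy chains were low per length: DNAH9 reached 5.39 FPKM in WT replicate 1 and 0.80 FPKM in WT replicate 2, with 0.35 and 0.24 FPKM in leptin overexpression.

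The WT ovaries also differed from each other. Of the 73 members with a count, 67 (91.8%) were higher in WT replicate 1 than in WT replicate 2, against 52.4% of all rows with a count, and 60 (82.2%) had their highest level in WT replicate 1 of all 4 libraries, against 32.2%. Among the 67 members with at least 5 counts in WT replicate 2, the ratio of WT replicate 1 over WT replicate 2 had a median of 5.02 (quartiles 2.06 and 6.70), beside 0.999 over 14703 such rows of the table. It was over 4 in 37 of them (55.2%), against 2.66% of those rows. By role, this ratio had medians of 5.45 for outer arm dyneins, 6.74 for inner arm dyneins, 4.79 for radial spokes, 5.61 for the central apparatus and 5.77 for tektins, and 1.85 for assembly factors. Across these 67 members, log2 CPM in the WT libraries correlated at Pearson's r = 0.719 and Spearman's rho = 0.782, a description across genes of 2 libraries.

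**Figure D3:**
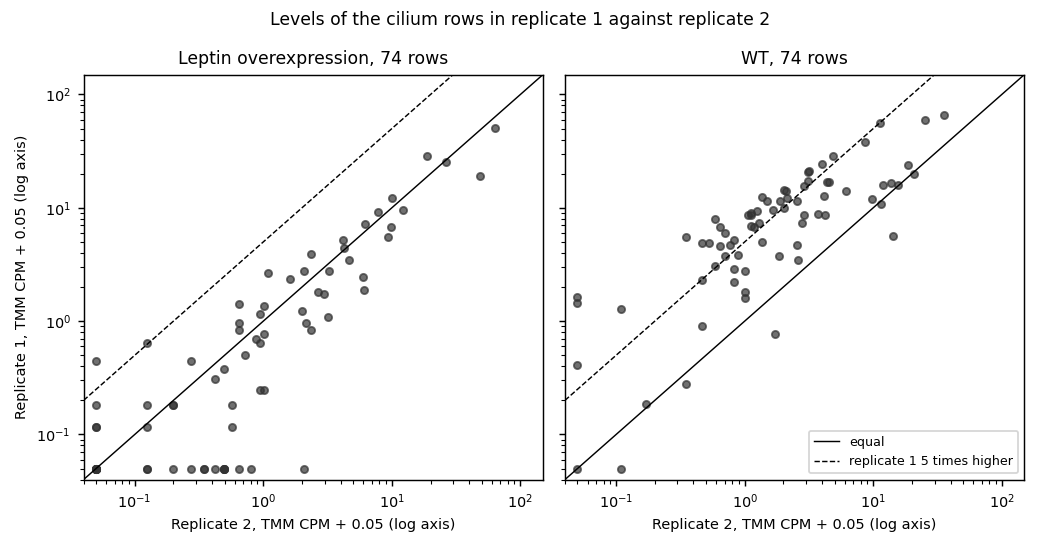
Each point is 1 member row, at its TMM CPM + 0.05 in replicate 2 (x, log axis) and replicate 1 (y, log axis), for leptin overexpression at left and WT at right, all 74 rows in each panel. The solid line marks equal levels and the dashed line a level 5 times higher in replicate 1. Most WT points lie above the solid line and spread to both sides of the dashed line. Leptin overexpression points lie on both sides of the solid line, more of them below it. In that group 23 rows are at 0 counts in replicate 1 and 13 in replicate 2.

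WT replicate 2 was nonetheless above leptin overexpression for most tested members. It exceeded both leptin overexpression libraries in 44 of the 59 tested members, against 37.5% of all tested genes, and was over 2 times both in 24 of them (40.7%, against 6.19%). WT replicate 1 was over 2 times both in 43 (72.9%, against 8.36%). FOXJ1, C20orf85, SPAG6, TEKT1, RSPH4A and DNAH5 all belonged to the first 24, and CCDC39, DNAAF1, DNAH12 and DNAI4 did not. The filter kept 22 tested members with both WT libraries and neither leptin overexpression library at its level, the genes from FOXJ1 to DNAH5 included. In those 22, WT replicate 2 had to lie above both leptin overexpression libraries before scaling, so these counts are descriptions only.

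Leaving out WT replicate 1 gave a median log2 fold change of -1.24 for the tested members, and leaving out WT replicate 2 gave -3.55. Without WT replicate 1, 5 members turned from below to above 0, among them DNAAF1 (0.34) and CCDC39 (0.22), and the median of the assembly factors was 0.14, and of the other CFAP rows and the other ciliated cell genes -0.60 and -0.59. Medians were -0.64 for inner arm dyneins, -0.89 for the nexin link and ruler, -1.46 for microtubule inner proteins, -1.61 for outer arm dyneins, -1.70 for the central apparatus, -3.08 for tektins, -3.76 for radial spokes and -5.30 for FOXJ1, the 1 tested regulator. Only FOXJ1 and C20orf85 passed in that fit (edgeR adjusted p = 2.52e-05 and 0.00468), against 0.646% of genes called lower. Without WT replicate 2, 37 members passed, against 2.61%. Such a fit takes its spread from the leptin overexpression libraries alone and holds none of the difference between the WT ovaries. Without leptin overexpression replicate 1 or 2, 0 members passed, and the medians were -2.55 and -2.99.

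**Figure D4:**
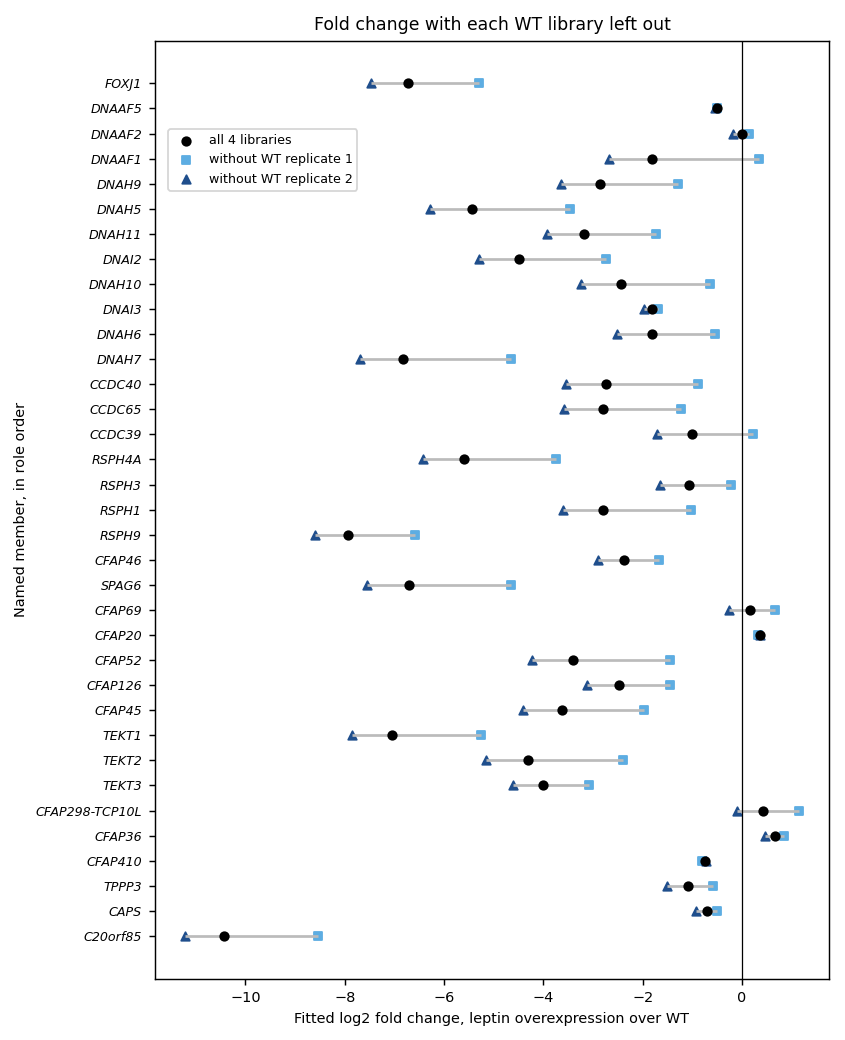
Fitted log2 fold change of leptin overexpression over WT (x) for the tested named members (down the page, in role order) from 3 fits: every library kept (circles), WT replicate 1 left out (squares) and WT replicate 2 left out (triangles), with a grey line from square to triangle. FOXJ1 stays at -5.30 without WT replicate 1, DNAI3 hardly moves, and DNAAF1 and CCDC39 cross 0; fitted values of C20orf85 and RSPH9, at 0 counts in leptin overexpression, depend on the fitting constant and are no bounds.

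Motile cilium genes outside the rule behaved alike. Of 133 listed genes 111 were matched, in 113 rows, and 85 rows were tested. At an unadjusted p under 0.05, 49 (57.6%) were lower and 1 (1.18%) higher, against 5.32% and 4.04% of all tested genes. With edgeR 0 passed over all genes, and DESeq2 called 27 (31.8%) lower, against 1.47%. The median log2 fold change was -2.15, and -1.14 without WT replicate 1. No count was found for 31 and 19 of the 113 rows in leptin overexpression, and for 1 and 4 in WT. The filter on low counts could thus keep rows through the WT libraries alone, so these shares and medians are descriptions only. HYDIN, of the central apparatus, was at 0.392 and 0.448 CPM in leptin overexpression and 22.6 and 4.95 CPM in WT (edgeR adjusted p = 0.197). ZMYND10, a dynein assembly factor, was at 0.718 and 1.72 CPM in leptin overexpression and 34.3 and 7.52 CPM in WT, and ROPN1L, of the radial spoke, was at 0.457 and 0.747 CPM in leptin overexpression and 25.7 and 4.36 CPM in WT. The 1 higher gene was MEIG1, known from mouse sperm formation, at 8.42 and 4.71 CPM in leptin overexpression and 1.63 and 2.03 CPM in WT.

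Other genes that act in making multiciliated cells were mostly at lower levels in leptin overexpression than in WT, on low counts. GMNC, which acts upstream of MCIDAS, had 0 counts in leptin overexpression and 24 and 7 counts in WT, and CCNO, needed to multiply centrioles, had 3 and 2 counts in leptin overexpression and 35 and 8 counts in WT. TP73, a regulator upstream of FOXJ1 in the mouse, had 1 and 0 counts in leptin overexpression and 63 and 39 counts in WT, so that its WT libraries were closer together than those of FOXJ1. MYB, a factor of early multiciliated cells in the mouse, was at 0 and 0.747 CPM in leptin overexpression and 6.17 and 1.61 CPM in WT. RFX3, a factor of primary and motile cilia, was at 4.11 and 5.75 CPM in leptin overexpression and 8.26 and 2.33 CPM in WT, with overlap.

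Transport genes shared by primary and motile cilia were split in direction. Of the 46 listed genes of intraflagellar transport and the BBSome, 37 were matched and tested. Log2 fold changes were below 0 for 19 and above 0 for 18, with a median of -0.11, or 0.17 without WT replicate 1. Their summed level was 703 and 935 CPM in leptin overexpression and 908 and 705 CPM in WT, and the median ratio of WT replicate 1 over WT replicate 2 was 1.37. At an unadjusted p under 0.05, 4 (10.8%) were lower, against 5.32% of all tested genes, and 0 higher, against 4.04%. Among the lower ones, IFT88, a transport subunit, was at 7.44 and 10.6 CPM in leptin overexpression and 31.9 and 11.4 CPM in WT. IFT172 was at 24.5 and 14.1 CPM in leptin overexpression and 57.9 and 31.7 CPM in WT. Among those above 0, IFT57 was at 19.5 and 59.2 CPM in leptin overexpression and 20.1 and 14.7 CPM in WT, with overlap.

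Markers of some other cell types moved with these genes. Of the oviduct secretory list 1 of 3 symbols was matched: OVGP1, secreted by the oviduct lining, reached 0.0653 and 1.195 CPM in leptin overexpression and 316 and 183 CPM in WT, a ratio of 1.73 between WT replicates 1 and 2. The 4 matched of 7 surface epithelium and mesothelium markers (KRT8, KRT18, CDH1 and UPK1B) summed to 5.81 and 13.5 CPM in leptin overexpression and 129 and 75.2 CPM in WT, with KRT18 at 0 counts in leptin overexpression replicate 1. UPK1B, unlike the other 3, overlapped, at 2.42 and 4.48 CPM in leptin overexpression and 4.36 and 5.25 CPM in WT. The 3 oocyte markers summed to 18.0 and 19.4 CPM in leptin overexpression and 110 and 19.6 CPM in WT, the excess lying in WT replicate 1. The 5 multiciliated markers, all members, summed to 1.24 and 2.54 CPM in leptin overexpression and 66.8 and 13.5 CPM in WT, with MCIDAS at 0 throughout. The 3 luteal markers summed to 34293 and 39763 CPM in leptin overexpression and 17067 and 36165 CPM in WT, lowest in WT replicate 1. Granulosa markers summed to 499 and 327 CPM in leptin overexpression and 609 and 524 CPM in WT, and theca and stroma markers to 1362 and 860 CPM in leptin overexpression and 787 and 2135 CPM in WT. Of the 4 granulosa markers, 1 (INHA, 253 and 137 CPM against 565 and 300 CPM in WT) had a log2 fold change below 0 and 3 above. CYP19A1 was at 9.21 and 197 CPM in WT replicates 1 and 2. CYP17A1 was at 157 and 1700 CPM there, and LUM was also higher in WT replicate 2, while DCN and PDGFRA were higher in WT replicate 1. Endothelial markers summed to 513 and 247 CPM in leptin overexpression and 483 and 830 CPM in WT, the highest sum being in WT replicate 2 for the last 2 lists. The part of these cell types in the ciliary result was not tested.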

How the data were processed

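Poly(A)-enriched RNA was sequenced on an Illumina NovaSeq, per the labels' protocols. The deposited expected counts per gene and the FPKM values, scaled to length and depth, were made by the authors. Tools listed in the submitters' processing notes, without roles, are RSEM, edgeR 3.32.0, DESeq2, StringTie 1.3.1, fastp 0.18.0, HISAT2 and Bowtie2 2.2.8; build and strand were not given in the sources used here. Columns named as controls were read as the WT samples of the same number.

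Counts were rounded, filtered with filterByExpr (0.604 CPM before scaling), TMM-scaled and compared by the quasi-likelihood test of edgeR (version 4.0.16; genotype the only term, 2 residual degrees of freedom; R 4.3.3, DESeq2 1.42.0, limma 3.58.1), with Benjamini-Hochberg adjustment over all tested genes. The script was tested on simulated data. SEs are absolute log2 fold changes divided by the square root of F. Pooled ratios used TMM-scaled library sizes and exact 95% intervals. Lists outside the rule were matched by the table's symbols and, for rows with none, by reference gene names.

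Members, lists and tests were chosen with earlier results of these data known. Named were FOXJ1, MCIDAS, LEP, up to 3 tested members per role with the highest mean CPM and the 8 members with the smallest p; others were named after their values were seen. Other settings tried were a replicate block, each library left out, reference symbols, DESeq2, limma-trend on log2(FPKM + 1), limma-voom, 1 CPM in 2 libraries, no filter, and upper-quartile or RLE factors.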

Additional observations from a re-analysis of the deposited data

How the results depend on the processing

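With 2 libraries a group, calls depended on the tool. Genes called over the whole table numbered 4 with all libraries and TMM, 11 with upper-quartile factors, 252 without a filter, 305 with DESeq2, 1 with limma-voom, 464 with limma-trend on FPKM, and 0 to 603 with 1 library left out. Members called numbered 0, against 14 without a filter, 17 with DESeq2, 25 with limma-trend and 0 to 37 with 1 library left out. The median log2 fold change of the members was -0.97 with limma-trend, whose pseudocount of 1 shrinks low genes, and -3.55 to -1.24 with 1 library left out. Upper-quartile factors set the median of all genes at -0.11 and limma-trend at -0.30. With the 12 rows that reference symbols add, 56 members were below 0 and the median was -2.49.

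The labels share replicate numbers but give no pairing, and deviations of same-numbered libraries correlated at -0.0995 over all tested genes. With a replicate block, 23 genes and 2 members (C20orf85 and DNAH1) were called, against 0.0861% of genes lower.

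Over 35 named tested members and all settings, 335 of 417 values kept their direction and side of the threshold, 65 passed it and 17 changed sign. DNAAF2, near 0 with all libraries, took values of -0.00019 (RLE factors), -0.12 (upper-quartile factors), -0.0030 (1 CPM in 2 libraries), -0.00043 (DESeq2), -0.013 (limma-voom), -0.23 (limma-trend), -0.0013 (replicate block), and -0.19 to 0.17 with 1 library left out. CFAP69 was at -0.30 with limma-trend and at -0.26 to 0.65 with 1 library left out, below 0 without leptin overexpression replicate 2 (-0.083) or WT replicate 2. CFAP20 was at -0.044 with limma-trend, while CFAP298-TCP10L ranged from -0.098 (without WT replicate 2) to 1.14 (without WT replicate 1) and CFAP36 from -0.15 (without leptin overexpression replicate 2) to 1.19 (without leptin overexpression replicate 1). DNAAF1 ranged from -2.67 to 0.34 and CCDC39 from -1.71 to 0.22, without WT replicate 2 and 1. The cause was not tested. Depth limits the members at 0 counts, where up to 0.224 CPM could be missed in a library.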

Other observations

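Some axoneme rows carry no symbol in the table and were named from reference gene names. DNAH3, an inner arm heavy chain, had 4 and 0 counts in leptin overexpression and 256 and 17 counts in WT in 1 of its 2 rows. CFAP91, a spoke-linked protein, was at 0.588 and 0.523 CPM in leptin overexpression and 8.62 and 2.09 CPM in WT. SPAG17, of the central apparatus, had 0 counts in leptin overexpression and 19 and 0 counts in WT. PIFO was low in every library, with 12 and 3 counts in leptin overexpression and 9 and 13 counts in WT. DNAAF3, an assembly factor, was at 11.2 and 8.96 CPM in leptin overexpression and 20.7 and 11.5 CPM in WT.

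Among general cilium genes, CETN2, a centriole protein, was at 75.5 and 94.2 CPM in leptin overexpression and 107 and 85.5 CPM in WT, and TUBB4B, a tubulin of axonemes and other microtubules, was at 144 and 180 CPM in leptin overexpression and 240 and 129 CPM in WT. Several transport genes were highest in leptin overexpression replicate 2: KIF3A, a motor subunit, was at 17.6 and 52.1 CPM in leptin overexpression and 20.9 and 12.2 CPM in WT, and IFT80 was at 16.2 and 52.3 CPM in leptin overexpression and 18.2 and 11.8 CPM in WT. Neither passed the threshold (edgeR adjusted p = 0.572 and 0.562).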
